A study of Homo sapiens with 12 samples.

Results

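Kinesins are motor proteins that walk along or take apart microtubules, and the 43 genes described here are those of the deposited table whose symbol is KIF or KIFC followed by a number and at most 1 letter. They are 43 of 57773 genes, and 40 of them were expressed well enough to test, each with at least 10 counts in every vehicle library. RNA was sequenced from PANC-1 cells, an established line that was derived from a human pancreatic carcinoma, in 4 groups of 3 libraries, all harvested after 24 h. Vehicle cells received DMSO, and the treated cells received 30 nM chaetocin, 90 nM MLN8237, or 30 nM chaetocin with 90 nM MLN8237. Chaetocin, made by fungi, is known to block SUV39H1, which methylates histone H3 at lysine K9, as well as thioredoxin reductase, and MLN8237 (alisertib) inhibits the mitotic kinase Aurora A. The label of the combined treatment writes the second compound with 1 digit changed, which was read as MLN8237. All libraries come from the same line, and whether they came from separate cultures is not stated, so p-values take in only the differences between such libraries, and these may be technical.

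Kinesins share a motor domain that binds ATP and microtubules, and differ in the tail that holds the cargo or the partner motor. Mitotic kinesins are made mostly in the G2 and M phases. They push the spindle poles apart, move and align chromosomes, shorten microtubule ends and build the midzone where the cell divides. Transport kinesins carry vesicles, mitochondria and endosomes in cells at any stage, and several are best known from neurons. The 43 genes were divided by known role into 14 mitotic kinesins, 17 transport kinesins and 12 others, which include ciliary motors, KIF2A with roles in both settings, and less studied members.

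Summed gene counts were 49439795 to 63747510 per library. The keratin genes KRT8 and KRT18 and the duct regulator SOX9 were at 2286 ± 181, 1629 ± 127 and 132 ± 3.27 CPM (counts scaled to library depth by TMM, mean ± SD, n = 3) in vehicle, whereas KRT7 was at 4.13 ± 0.692. The summed CPM of 6 markers of the ductal line was 4160 to 4770 in vehicle, 2360 to 2530 with chaetocin, 4470 to 5240 with MLN8237 and 1940 to 2270 with both, and 4 of the 6 fell with chaetocin and 5 with both. Of all tested genes 11.9% were lower with chaetocin and 18.3% with both. The sum over 6 neuronal markers was 8.53 to 9.92 CPM in vehicle, 4.95 to 7.57 with chaetocin, 9.3 to 12 with MLN8237 and 7.18 to 7.94 with both. Most of it was SYP, a synaptic vesicle protein, at 8.84 ± 0.669 CPM in vehicle and 5.83 ± 1.32 with chaetocin, while STMN2, ELAVL4 and GAP43 had 0 counts in vehicle. Of the 3 neuronal markers tested, SYP fell with chaetocin and SNAP25 rose with both compounds. SNAP25 was near the floor, at 0.036 ± 0.0358 CPM in vehicle and 0.274 ± 0.0874 with both. The sum over 4 fibroblast markers was 63.2 to 79.4 CPM in vehicle, 53.5 to 62 with chaetocin, 52.9 to 61 with MLN8237 and 31.8 to 47.1 with both, where both tested markers (COL1A1 and COL3A1) fell. The sum over 6 ciliated-cell markers was 22 to 26.1 CPM in vehicle, 21.4 to 23.7 with chaetocin and 16.4 to 21.5 with MLN8237. It was 21.9 to 27.1 CPM with both compounds, where 1 of 5 tested (FOXJ1) rose. FOXJ1 was likewise near the floor, at 0.0484 ± 0.0558 CPM in vehicle and 0.274 ± 0.0925 with both. CDH5 and VWF, the endothelial markers matched, had 0 counts in vehicle and summed to 1.29 to 4.08 CPM with chaetocin or both compounds, and VWF, the 1 tested, rose with each. The part of these shifts in the kinesin values was not tested. On the second principal component, which held 14.6% of the variance, the 3 treated libraries numbered 3 lay at -32.2, -82.7 and -28.1 and the other 9 between 3.31 and 34.8. Class counts and medians against vehicle are given with and without them.

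In vehicle, KIF5B, the ubiquitous heavy chain of conventional kinesin, had the highest level per length of all kinesins, at 53.6 ± 2.48 RPKM (reads scaled to gene length and library depth, mean ± SD, n = 3). The next were 7 mitotic motors. KIF11, which pushes the spindle poles apart, was at 43.2 ± 2.22 RPKM, KIF2C, which takes apart microtubule ends at kinetochores, at 39.3 ± 2.08, and KIF4A, a motor on chromosome arms and in the midzone, at 38.8 ± 1.64. KIF11 and KIF2C, and KIF2C and KIF4A, did not differ beyond 1 SD of each, whereas KIF5B lay clearly above all 3. KIFC1, a motor that moves to microtubule minus ends and gathers centrosomes, followed at 34.9 ± 0.84 RPKM. KIF20A, KIF22 and KIF23 then lay close together at 29.4 ± 1.98, 27.9 ± 1.14 and 27.4 ± 0.21 RPKM, within 1 SD of their neighbours. KIF1A, known mainly as the motor of synaptic vesicle precursors in neurons, was the next transport kinesin at 27.2 ± 3.38 RPKM. KIF3B followed at 23.1 ± 1.65 RPKM, KIF1C at 19.9 ± 1.57 and KIF2A, which shortens microtubules in spindles and in neurons, at 16.6 ± 0.558. The other heavy chains of conventional kinesin, KIF5A and KIF5C, were at 0.705 ± 0.133 and 0.0563 ± 0.0227 RPKM, far below KIF5B.

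**Figure D1:**
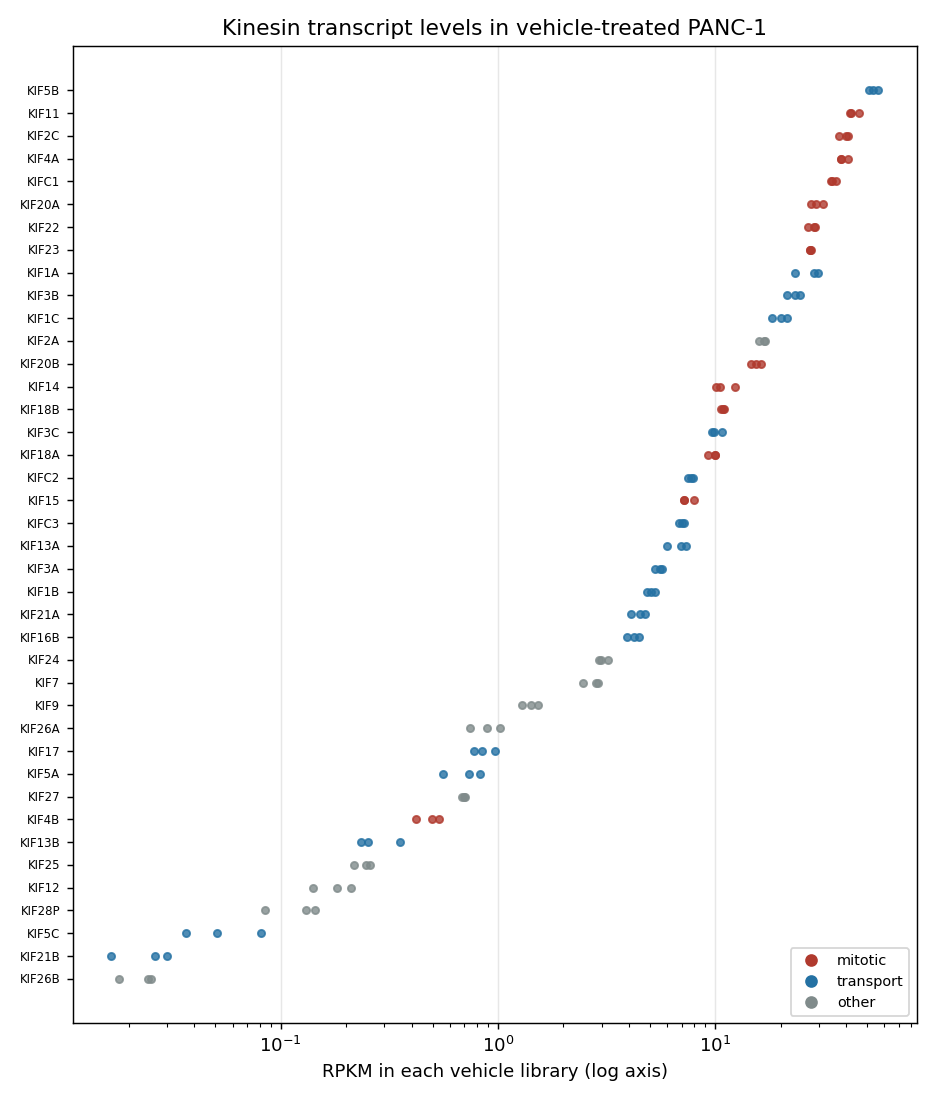
Deposited RPKM of each kinesin with counts in vehicle (log axis), 1 point for each of the 3 vehicle libraries, coloured by role. KIF5B stood at the top and 7 mitotic kinesins came next, while several transport and ciliary members lay under 1 RPKM.

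The bottom of the order held genes with little or no RNA. KIF2B and KIF6 had 0 counts in all 12 libraries, which allows up to 0.0045 CPM over the 12 libraries by counting error alone. KIF19, a ciliary motor, had 6 counts in all. KIF4B is an intronless near-copy of KIF4A, so its 0.483 ± 0.0604 RPKM cannot be told apart from reads of KIF4A that were counted to it. Of the 43 genes, 29 overlap another gene with counts, and since counting by strand is not stated in the sources used here, part of their reads may belong to a neighbour. Examples among the genes described below are KIF25 with its antisense gene KIF25-AS1, KIFC2 with FOXH1, KIF20A with BRD8 and CDC23, and KIF18A with METTL15. KIF2C, KIFC1, KIF23, KIF4A, KIF1B, KIF3A, KIFC3 and KIF17 also overlap other genes with counts. KIF28P, named as a pseudogene, overlaps 3 genes that carry clone names.

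Chaetocin alone was compared with vehicle to ask what the compound does by itself. Most mitotic and most transport kinesins did not pass, which does not show that they stayed at their vehicle level. Of 40 tested kinesins 5 rose and 4 fell, or 22.5%, beside 24.5% of all 22831 tested genes (12.6% higher and 11.9% lower). The share over the whole family was close to the background and is not a result about kinesins. In 10 kinesins all chaetocin libraries lay above all vehicle libraries, beside 24.2% of all tested genes, and in 7 all lay below, beside 23.9%. By role, 2 of 13 tested mitotic kinesins rose and 0 fell, 1 of 17 transport kinesins rose and 4 fell, and 2 of 10 others rose. The median log2 fold change was 0.14 for the mitotic and -0.15 for the transport kinesins, beside 0.01 for all tested genes. In bulk RNA, more or fewer cells in mitosis and more or less RNA per cell cannot be told apart.

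Among the mitotic kinesins, KIF2C (ENSG00000142945, chromosome 1, 45205490 to 45233439, here and below as in the deposited table, hg19) stood at 154, 157 and 144 CPM in vehicle replicates 1, 2 and 3, and at 195, 192 and 186 with chaetocin in the same order. Each chaetocin library lay above each vehicle library, and KIF2C rose by 0.33 ± 0.0767 SE (adjusted p = 0.00715, edgeR) on the log2 scale. KIFC1 (ENSG00000237649, chromosome 6, 33359313 to 33377701) stood at 122, 126 and 122 CPM in vehicle and 139.5, 142 and 142 with chaetocin, likewise without overlap, and rose by 0.20 ± 0.0679 SE (adjusted p = 0.0483, edgeR). This rise of KIFC1 was small and its call was lost without a filter on low counts and with any of the 6 libraries left out (edgeR adjusted p = 0.0994 to 0.144). KIF11 had 215, 233 and 216 CPM in vehicle and 219, 197 and 169 with chaetocin, where the libraries numbered 2 and 3 lay below all vehicle libraries (log2 fold change -0.18 ± 0.136 SE, edgeR adjusted p = 0.375). KIF20A and KIF23 had log2 fold changes of 0.14 ± 0.131 SE (adjusted p = 0.484, edgeR) and 0.15 ± 0.0914 SE (adjusted p = 0.263, edgeR), and KIF23 passed without the 3 treated libraries numbered 3. KIF15, a motor that can stand in for KIF11 in keeping the poles apart, had the lowest fold change of the class and went from 41.6 ± 2.32 to 32.8 ± 4.89 CPM (n = 3), and did not pass (edgeR adjusted p = 0.0949).

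The transport kinesins that fell include the most abundant neuronal-type motor. KIF1A (ENSG00000130294, chromosome 2, 241653181 to 241759725) stood at 304, 368 and 392 CPM in vehicle and 219, 198 and 184 with chaetocin. All chaetocin values lay below all vehicle values, although the vehicle libraries varied, and KIF1A changed by -0.83 ± 0.128 SE (adjusted p = 0.000639, edgeR) on the log2 scale. KIFC2 (ENSG00000167702, chromosome 8), a minus-end motor known from dendrites and axons, stood at 36.2, 35.1 and 37.5 CPM in vehicle and 20.9, 24.4 and 22.9 with chaetocin. It had the smallest p of all kinesins and changed by -0.67 ± 0.0883 SE (adjusted p = 0.000209, edgeR). KIF1B (ENSG00000054523, chromosome 1, 10270863 to 10441661), which carries mitochondria and synaptic vesicle precursors, stood at 90.4, 98.1 and 95.2 CPM in vehicle and 73, 67.6 and 55.2 with chaetocin. All chaetocin values lay below vehicle, the lowest in the library numbered 3, and KIF1B changed by -0.53 ± 0.123 SE (adjusted p = 0.00697, edgeR). KIF1A, KIFC2, KIF1B and the mitotic KIF2C kept their calls with each of the 6 libraries left out in turn.

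KIF3A, a motor subunit of the heterotrimeric kinesin of cilia and vesicles, fell from 39.8 ± 1.7 to 31.2 ± 2.94 CPM (n = 3, edgeR adjusted p = 0.0474), a call that 5 of the 6 left-out libraries (all but chaetocin replicate 1) ended, as did RLE scaling and both other filters on low counts. Its partner motor KIF3B did not pass, at 148 ± 10.6 and 142 ± 14.6 CPM. KIFC3, a minus-end motor known from epithelial cell junctions and apical transport, was the transport kinesin that rose, from 53.9, 57.1 and 56.7 to 64.8, 72.1 and 73.7 CPM (log2 fold change 0.33 ± 0.089 SE, edgeR adjusted p = 0.0165). The KIFC3 call was lost without vehicle replicate 1 or chaetocin replicate 2 or 3 (edgeR adjusted p up to 0.0709). KIF5B stood at 317, 347 and 334 CPM in vehicle and 309, 263 and 215 with chaetocin, with no overlap between the groups, and did not pass (log2 fold change -0.34 ± 0.153 SE, edgeR adjusted p = 0.124), although it did in a fit limited to these 2 groups. The other transport kinesins that did not pass ranged from -0.35 for KIF21A to 0.80 for KIF5C, which stood at 0.547 ± 0.218 CPM in vehicle, too low for a precise fold.

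Of the other kinesins, KIF25 and KIF28P rose from low levels. KIF25 stood at 0.755, 0.638 and 0.733 CPM in vehicle and 1.23, 1.26 and 1.32 with chaetocin (log2 fold change 0.84 ± 0.266 SE, edgeR adjusted p = 0.0346), and lost its call with any of the 6 libraries left out (edgeR adjusted p = 0.0679 to 0.121). KIF28P stood at 0.482, 0.31 and 0.537 CPM and 0.694, 1.04 and 0.883 (log2 fold change 0.98 ± 0.327 SE, edgeR adjusted p = 0.0445), and lost its call without a filter on low counts and with each library but chaetocin replicate 1 left out. Over the whole family, leaving out 1 library gave 4 called kinesins without vehicle replicate 1 or chaetocin replicate 2 or 3, 5 without vehicle replicate 2 or 3, and 7 without chaetocin replicate 1.

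**Figure D2:**
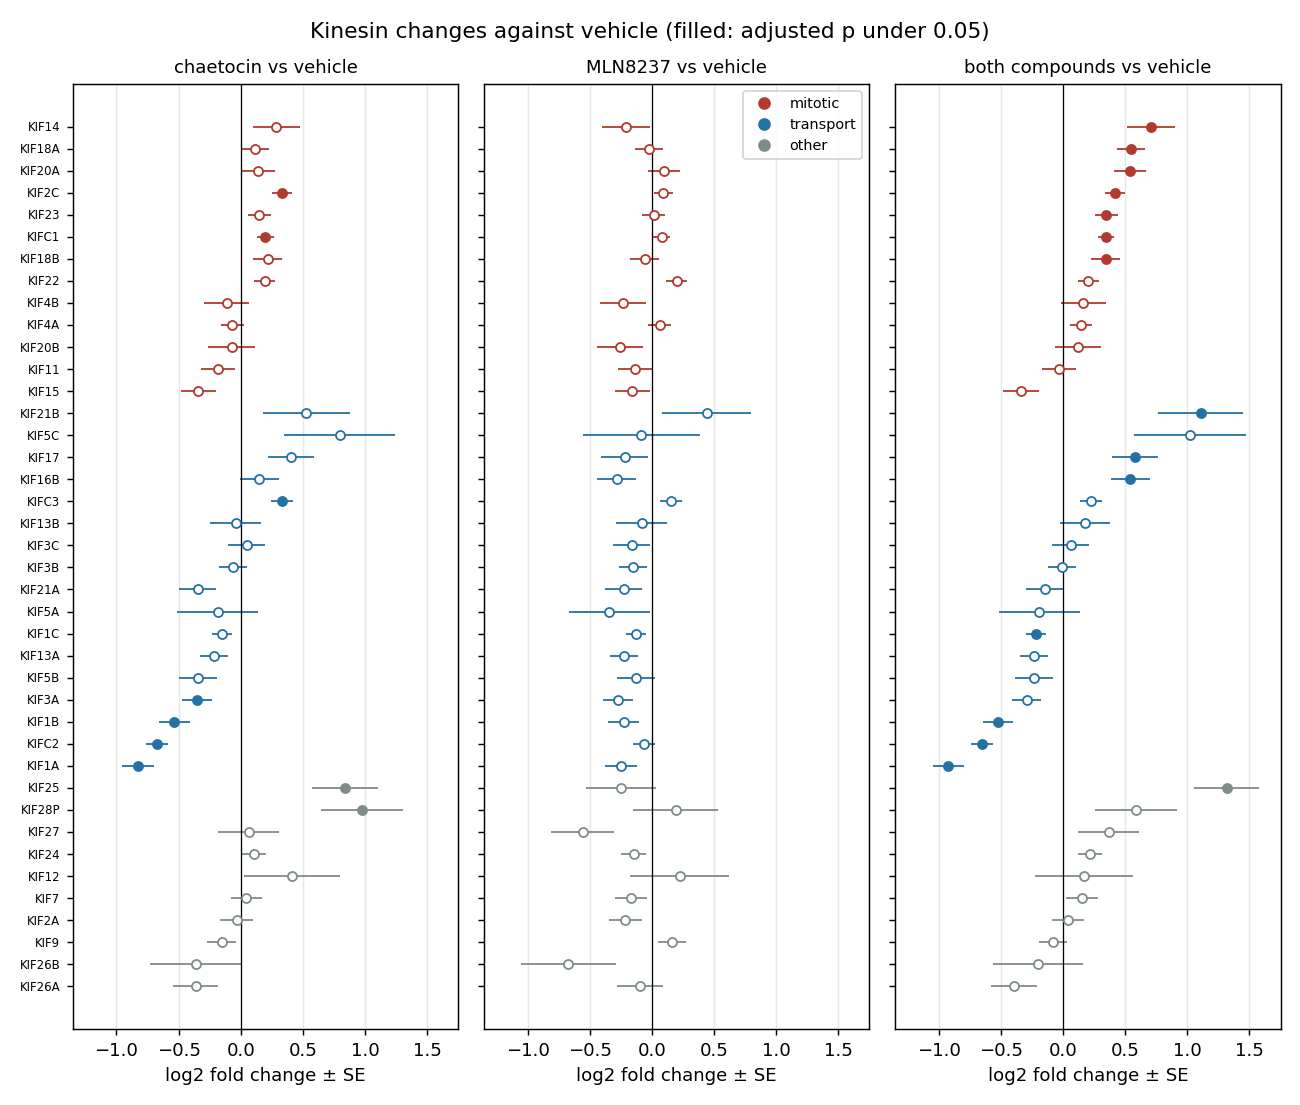
Fitted log2 fold change ± SE of the 40 tested kinesins against vehicle, for chaetocin, MLN8237 and both compounds, with filled points where the edgeR adjusted p was under 0.05 and colours by role. Filled red points lie to the right of 0 in the right-hand panel and no point is filled for MLN8237.

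MLN8237 alone was compared with vehicle to ask what this compound does by itself. No kinesin passed: 0 of 40 were called by edgeR and 0 by DESeq2, with 3 at an unadjusted p under 0.05 in each, beside 1 of 22831 tested genes (0.00438%) called by edgeR. In 3 kinesins all MLN8237 libraries lay above all vehicle libraries, beside 6.96% of all tested genes, and in 7 all lay below, beside 7.06%. The median log2 fold change was -0.02 for the 13 mitotic and -0.16 for the 17 transport kinesins, beside 0.00 for all tested genes. Of all tested genes 1938 had an unadjusted p under 0.05 by edgeR, and DESeq2 called 1. The standard errors of the 40 log2 fold changes were 0.0679 to 0.473, so small changes were not detectable, least of all in low-level members. Abundant members were limited too, as KIF14, at 84.2 ± 8.88 CPM in vehicle, had an SE of 0.191.

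KIF22, a motor that holds chromosome arms in the spindle, and KIF3A had the smallest p with MLN8237. KIF22 stood at 129, 130.2 and 122 CPM in vehicle and 134, 144 and 159 with MLN8237 (log2 fold change 0.20 ± 0.0847 SE, edgeR adjusted p = 0.516). KIF3A stood at 38, 39.97 and 41.4 CPM in vehicle and 37, 35.2 and 26.5 with MLN8237 (log2 fold change -0.27 ± 0.12 SE, edgeR adjusted p = 0.516). The groups did not overlap for either gene, and the library numbered 3 lay farthest from vehicle in both.

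MLN8237 replicate 3 stood apart from the other 2 libraries of its group for several mitotic kinesins. KIF11 stood at 225, 219.6 and 159 CPM with MLN8237, KIF20A at 143, 150.4 and 99.7 and KIF23 at 199, 199 and 162, each with replicate 3 below all vehicle libraries. KIF2C at 154, 161 and 171 and KIF4A at 202, 193 and 211 CPM had their highest MLN8237 value in replicate 3 instead. KIF5B stood at 332, 319.8 and 261 CPM, again lowest in replicate 3. The log2 fold changes were -0.14 for KIF11, 0.10 for KIF20A, 0.02 for KIF23 and -0.13 for KIF5B (edgeR adjusted p = 0.643, 0.728, 0.951 and 0.697). Without the 3 treated libraries numbered 3, the medians were 0.05 for the mitotic and -0.09 for the transport kinesins, again with 0 called.

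Both compounds together were compared with vehicle to ask what the combined treatment does. Of 13 tested mitotic kinesins 7 rose and 0 fell, beside 20.1% of all tested genes higher and 18.3% lower. They were KIF14, KIF18A, KIF20A, KIF2C, KIF23, KIFC1 and KIF18B, with log2 fold changes of 0.35 to 0.71. The mitotic median was 0.35, beside 0.02 for all tested genes. Of 17 transport kinesins 3 rose and 4 fell, with a median of -0.15, and 1 of 10 others rose. Over the whole family 15 of 40 were called, or 37.5%, beside 38.5% of all tested genes, a share near the background. In 14 kinesins all libraries with both compounds lay above all vehicle libraries, beside 27.5% of all tested genes, and in 6 all lay below, beside 27.4%. This comparison shares the vehicle libraries with the one for chaetocin alone, so the values of the 2 comparisons are given side by side and not as separate support.

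KIF18A (ENSG00000121621, chromosome 11, 28042167 to 28129855), which dampens chromosome movement so that chromosomes line up, stood at 48.8, 49 and 46.3 CPM in vehicle and 74.1, 71.3 and 65.5 with both compounds. The groups were widely separated, and KIF18A rose by 0.55 ± 0.114 SE (adjusted p = 0.00214, edgeR) on the log2 scale. With chaetocin alone it stood at 55.7, 53.3 and 46.9 CPM, a log2 fold change of 0.11 ± 0.114 SE (adjusted p = 0.518, edgeR). KIF2C stood at 209, 196 and 204 CPM with both compounds and rose by 0.42 ± 0.0767 SE (adjusted p = 0.000947, edgeR) against vehicle. KIF18B, which works at the tips of astral microtubules, rose from 53.2 ± 0.978 to 67.6 ± 6.19 CPM (n = 3, edgeR adjusted p = 0.0322), a call that every left-out library but combination replicate 3 ended.

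KIF20A (ENSG00000112984, chromosome 5, 137514408 to 137523404), which brings Aurora B and its partners to the midzone, stood at 121, 131 and 116 CPM in vehicle and 174, 190.5 and 169.9 with both compounds, and rose by 0.54 ± 0.131 SE (adjusted p = 0.00569, edgeR). KIF23 (ENSG00000137807, chromosome 15, 69706585 to 69740764), the motor of the centralspindlin complex, stood at 183, 185 and 186 CPM in vehicle and 240.3, 239 and 225 with both compounds. The 3 vehicle values of KIF23 were nearly equal and all combination values lay above them, with a log2 fold change of 0.35 ± 0.0915 SE (adjusted p = 0.00881, edgeR). KIF14, a motor needed to finish division, had the largest fitted change of the class. It stood at 77, 94.1 and 81.4 CPM in vehicle and 165, 141 and 107 with both compounds, where the spread was wide, and rose by 0.71 ± 0.191 SE (adjusted p = 0.0102, edgeR). The KIF14 call was lost without combination replicate 1 (edgeR adjusted p = 0.0531). KIFC1 stood at 154, 157 and 158 CPM with both compounds, above all vehicle and chaetocin values, and rose by 0.35 ± 0.0679 SE (adjusted p = 0.00149, edgeR) against vehicle.

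Not every mitotic kinesin was among the 7. KIF11, the most abundant of them per length in vehicle, stood at 229, 228 and 191 CPM with both compounds (log2 fold change -0.03 ± 0.136 SE, edgeR adjusted p = 0.868). KIF4A was at 193 ± 7.25 CPM in vehicle and 214 ± 15.3 with both compounds, and KIF22 at 127 ± 4.13 and 146 ± 8.44 (n = 3, edgeR adjusted p = 0.237 and 0.0729). KIF4A overlapped vehicle and KIF22 did not. KIF15 was the lowest in fold change, at 32.9 ± 6.43 CPM with both compounds (log2 fold change -0.34 ± 0.141 SE, edgeR adjusted p = 0.0746). Without the 3 treated libraries numbered 3, the mitotic members higher with both compounds were 10 of 13, with KIF20B, KIF22 and KIF4A added and a median of 0.35, beside 24% of all tested genes higher in that fit. In the same fit 6 of 13 rose with chaetocin alone, beside 16.6% of all tested genes. The transport kinesins gave 2 higher and 4 lower with chaetocin, with a median of -0.05 in place of -0.15, beside 16.6% and 16.3% of all tested genes. With both compounds they gave 5 higher and 4 lower, with KIF5C and KIFC3 added, KIF3A in place of KIF1C and a median of -0.0008 in place of -0.15, beside 24% and 23.3%. The transport median with both compounds was thus close to 0 without these 3 libraries.

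**Figure D3:**
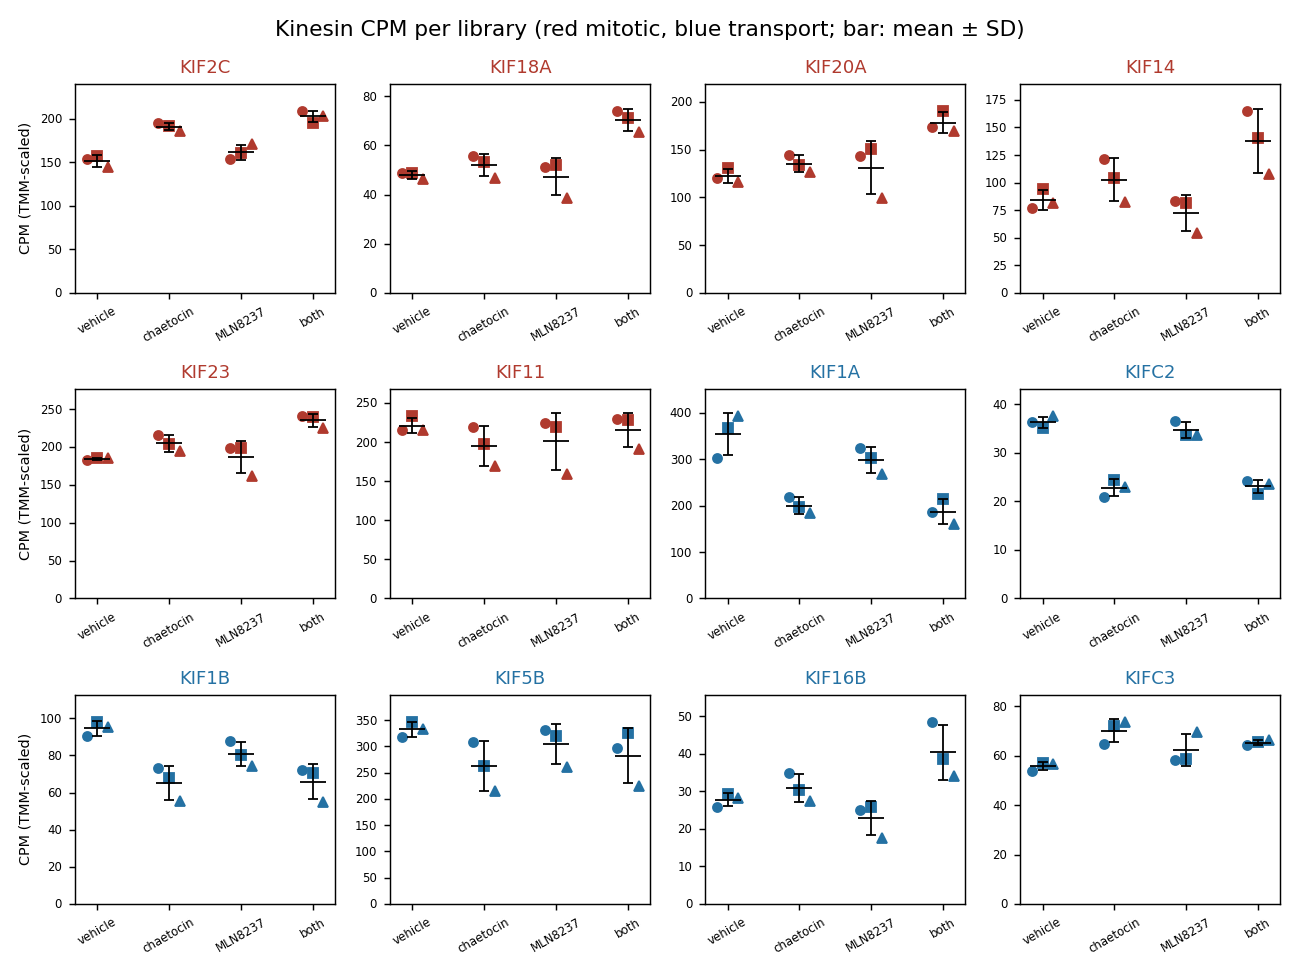
TMM-scaled CPM of 12 kinesins in each of the 12 libraries (circle, square and triangle for replicates 1, 2 and 3), with mean ± SD per group and axes from 0. KIF2C, KIF18A, KIF20A and KIF23 lie highest with both compounds, and KIF1A, KIFC2 and KIF1B lie low in both chaetocin-containing groups.

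The transport kinesins moved in both directions with both compounds. KIF1A stood at 187, 214 and 161 CPM and changed by -0.92 ± 0.128 SE (adjusted p = 0.000145, edgeR) against vehicle. KIFC2 stood at 24.2, 21.5 and 23.4 CPM (log2 fold change -0.65 ± 0.0883 SE, edgeR adjusted p = 0.000118) and KIF1B at 72.2, 70.3 and 55.1 CPM (log2 fold change -0.52 ± 0.123 SE, edgeR adjusted p = 0.00471). For these 3 genes every library with both compounds lay below every vehicle library. KIF1C, a motor of vesicles at adhesion sites and the Golgi, fell from 180.3 ± 15.3 to 155 ± 5.48 CPM (n = 3, edgeR adjusted p = 0.0467). The KIF1C call was lost under RLE scaling, other filters and a fit limited to these 2 groups. It was also lost without the 3 treated libraries numbered 3, and without vehicle replicate 2 or 3 or combination replicate 1 or 3 (edgeR adjusted p up to 0.156).

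The transport kinesins that rose were KIF16B, KIF17 and KIF21B. KIF16B (ENSG00000089177, chromosome 20, 16252749 to 16554078), which moves early endosomes outward, stood at 25.9, 29.2 and 28.3 CPM in vehicle and 48.5, 38.8 and 34.2 with both compounds, a log2 fold change of 0.54 ± 0.157 SE (adjusted p = 0.0155, edgeR). KIF16B lost its call without vehicle replicate 1 or combination replicate 1 (edgeR adjusted p up to 0.0787). KIF17, known for carrying receptors in dendrites, rose from 4.08 ± 0.444 to 6.1 ± 0.424 CPM and KIF21B, which limits microtubule growth, from 0.311 ± 0.0868 to 0.67 ± 0.186 CPM (n = 3, edgeR adjusted p = 0.0247 and 0.0209). KIF17 lost its call without vehicle replicate 2 or 3 or combination replicate 1 or 3 (edgeR adjusted p up to 0.097). KIF21B lost its call without vehicle replicate 3 or combination replicate 1 or 3 (edgeR adjusted p up to 0.0913). KIF5B, at 297, 326 and 225 CPM with both compounds, did not pass (log2 fold change -0.24 ± 0.153 SE, edgeR adjusted p = 0.249). The other transport kinesins that did not pass ranged from -0.29 for KIF3A to 1.02 for KIF5C (edgeR adjusted p = 0.0693 and 0.0883). Among the other kinesins KIF25 rose to 1.71, 1.29 and 2.3 CPM with both compounds (log2 fold change 1.32 ± 0.264 SE, edgeR adjusted p = 0.0017).

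The combination was also set against each compound alone, to ask what the second compound adds. Against chaetocin, edgeR called 0 of 40 kinesins and 0 of 22831 genes (0%), with 7 kinesins at an unadjusted p under 0.05, and DESeq2 called 1 kinesin, KIF18A. Of all tested genes 2677 had an unadjusted p under 0.05 by edgeR, and DESeq2 called 296. KIF18A and KIF20A had the smallest p, at log2 fold changes of 0.44 ± 0.114 SE (adjusted p = 0.212, edgeR) and 0.40 ± 0.131 SE (adjusted p = 0.277, edgeR). For both genes all combination libraries lay above all chaetocin libraries. KIF11, KIF23 and KIF5B had log2 fold changes of 0.15, 0.20 and 0.11 (edgeR adjusted p = 0.711, 0.426 and 0.818). All 13 mitotic kinesins had a positive fitted change here, from 0.01 to 0.44 with a median of 0.19, beside 0.00 for all tested genes. Of the 13, 5 did not overlap between the groups and were higher, beside 9.54% of all tested genes, and 0 were lower, beside 9.15%. The 17 transport kinesins had a median of 0.06, and 0 of them had groups that did not overlap.

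Against MLN8237, 14 of 40 kinesins were called, or 35%, beside 45.9% of all tested genes (23.3% higher and 22.7% lower). In 14 kinesins all libraries with both compounds lay above all MLN8237 libraries, beside 26.8% of all tested genes, and in 5 all lay below, beside 24.5%. Of 13 mitotic kinesins 7 were higher and 0 lower, of 17 transport kinesins 2 and 2, and of 10 others 3 and 0. KIFC2 (-0.59 ± 0.0883 SE, edgeR adjusted p = 0.000227) and KIF1A (-0.67 ± 0.128 SE, edgeR adjusted p = 0.00108) were the transport kinesins that were lower, as log2 fold changes. KIF16B (0.83 ± 0.159 SE, edgeR adjusted p = 0.00118) was higher, with KIF17 from 3.5 ± 0.966 to 6.1 ± 0.424 CPM (n = 3, edgeR adjusted p = 0.00395). By p, KIF25, KIF16B, KIF18A and KIF14 came first among the higher ones, and KIF25, KIF18A and KIF14 had log2 fold changes of 1.57 ± 0.269 SE (adjusted p = 0.000557, edgeR), 0.57 ± 0.114 SE (adjusted p = 0.00149, edgeR) and 0.92 ± 0.192 SE (adjusted p = 0.00199, edgeR). KIF24 and KIF27, known from centrioles and cilia, were the other 2 called, both higher (edgeR adjusted p = 0.00867 and 0.0089). KIF20A and KIF23 were higher by 0.44 ± 0.131 SE (adjusted p = 0.0149, edgeR) and 0.33 ± 0.0915 SE (adjusted p = 0.00986, edgeR), while KIF11 and KIF5B did not pass (edgeR adjusted p = 0.566 and 0.59). KIF20A lost its call without combination replicate 2 (edgeR adjusted p = 0.057), and KIF20A, KIF23, KIF18B and KIFC1 lost it when the model held these 2 groups alone. KIF18B also missed the threshold without combination replicate 1 (edgeR adjusted p = 0.053), and KIFC1 without a filter on low counts.

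The interaction subtracts the log2 changes with chaetocin and with MLN8237 from the log2 change with both, and asks whether the joint change departs from additive. No kinesin passed by edgeR or by DESeq2, with 4 at an unadjusted p under 0.05 in each, and edgeR called 0 of all tested genes (0%), with 3108 at an unadjusted p under 0.05 and 15 called by DESeq2. KIF16B (0.68 ± 0.223 SE, edgeR adjusted p = 0.362) and KIF18A (0.46 ± 0.161 SE, edgeR adjusted p = 0.362) had the smallest p. The medians were 0.18 over 13 mitotic and 0.24 over 17 transport kinesins, beside 0.01 over all tested genes. KIF11, KIF20A, KIF23 and KIF5B had interaction terms of 0.28, 0.30, 0.18 and 0.24 (edgeR adjusted p = 0.475, 0.44, 0.491 and 0.586).

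The contrast of the 2 classes was followed library by library, as the median of log2(CPM + 0.5) over the tested members of a class. For the mitotic kinesins it was 6.923, 6.980 and 6.870 in vehicle, 7.129, 7.066 and 6.995 with chaetocin, 7.010, 7.049 and 6.647 with MLN8237 and 7.270, 7.242 and 7.250 with both. The combination libraries lay highest and MLN8237 replicate 3 lowest. For the transport kinesins it was 5.470, 5.668 and 5.625 in vehicle, 5.439, 5.299 and 4.966 with chaetocin, 5.525, 5.393 and 5.154 with MLN8237 and 5.658, 5.493 and 5.145 with both. The 3 lowest values were those of the treated libraries numbered 3, and the other libraries with both compounds lay within the vehicle range. The mitotic median log2 fold change minus the transport one was 0.29 with chaetocin, 0.14 with MLN8237 and 0.49 with both. The mitotic median level minus the transport one per library, a different measure, was 1.452, 1.313 and 1.245 in vehicle. It was 1.69, 1.767 and 2.029 with chaetocin, 1.485, 1.656 and 1.494 with MLN8237 and 1.612, 1.749 and 2.105 with both. On this measure the libraries with chaetocin and with both overlapped, and its pooled standard deviation between libraries of a group was 0.171. Without the 3 treated libraries numbered 3 the differences of median log2 fold change were 0.25, 0.14 and 0.35.

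**Figure D4:**
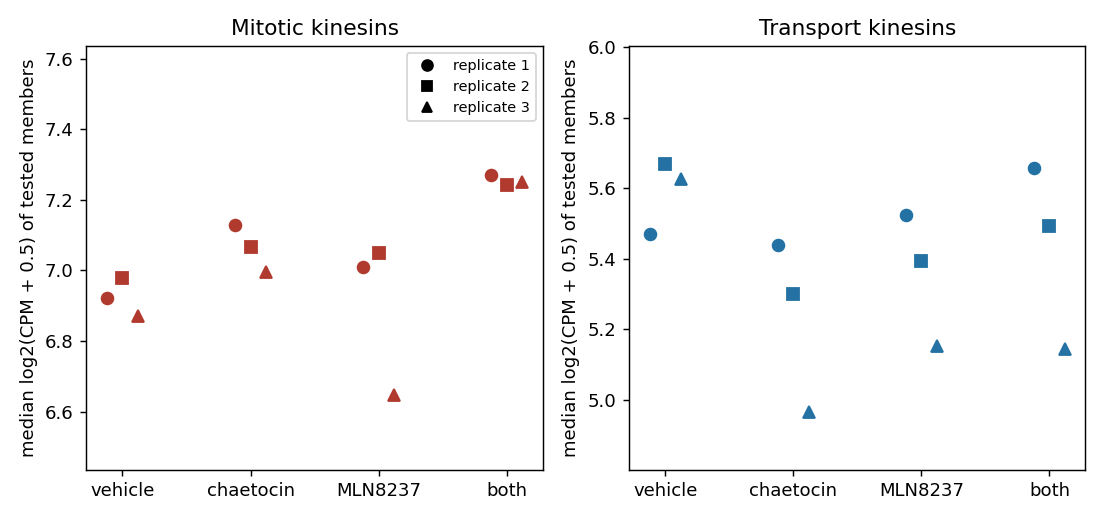
Median log2(CPM + 0.5) over the tested mitotic kinesins (left, n = 13 genes) and transport kinesins (right, n = 17 genes) in each library, with replicates by symbol. Both axes span the same range, the mitotic medians lie highest with both compounds, and the treated libraries numbered 3 hold the 3 lowest transport medians.

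Gene length moved with the class and with the changes. Tested transport kinesins had a median length of 7552 bases and mitotic ones of 4668, beside 3242 over all tested genes. Across the 40 tested kinesins, the Spearman correlation of length with the log2 fold change was -0.43 for chaetocin, -0.36 for MLN8237 and -0.36 for both compounds. Across all 22831 tested genes it was -0.12, -0.21 and -0.09, as a description over genes that share the same libraries. When only the 8 transport kinesins within the length range of the mitotic ones (3345 to 7274 bases) were set against the mitotic kinesins, a comparison chosen after seeing the data, the differences were 0.27, 0.17 and 0.45. They are KIF16B, KIF17, KIF3A, KIF3B, KIF3C, KIF5A, KIF5B and KIFC2. The part of length in the other values was not tested.

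Partners of the motors were taken from lists written with the kinesin classes. CENPE, a kinesin that ties chromosomes to microtubule ends and whose symbol lies outside the KIF pattern, stood at 90.4 ± 8.51 CPM in vehicle and 157 ± 31.8 with both compounds, and rose by 0.80 ± 0.174 SE (adjusted p = 0.00297, edgeR). With chaetocin alone its log2 fold change was 0.23 ± 0.173 SE (adjusted p = 0.385, edgeR). Of 15 spindle and midzone partners 2 rose and 0 fell with chaetocin, 0 were called with MLN8237, and 7 rose and 0 fell with both compounds, where the median was 0.27, beside 0.02 for all tested genes. The 0 with MLN8237 was by edgeR, with 2 of the 15 at an unadjusted p under 0.05. Of all tested genes 12.6% were higher with chaetocin and 20.1% with both compounds. The count of partners with chaetocin was near that share, and the list was not tested against these shares. PRC1, which bundles midzone microtubules and binds KIF4A and KIF14, rose from 296 ± 8.69 to 372 ± 7.95 CPM with both compounds, and TPX2, an activator of Aurora A, from 742 ± 13.5 to 897 ± 35.2. CDCA8, a partner of Aurora B, rose by 0.47 ± 0.0752 SE (adjusted p = 0.000378, edgeR), from 157 ± 5.74 to 217 ± 7.42 CPM with both compounds. With chaetocin alone PRC1 stood at 347 ± 16.1 CPM, TPX2 at 775 ± 48.3 and CDCA8 at 191 ± 3.65. For the combination against chaetocin edgeR called 0 of the 15 partners, with 6 at an unadjusted p under 0.05. RACGAP1, the partner of KIF23 in centralspindlin, did not pass with both compounds, at 226 ± 8.68 CPM in vehicle and 258 ± 18 with both.

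Proliferation markers gave a mixed picture beside the mitotic kinesins. Of 12 such markers 1 rose with chaetocin, edgeR called 0 with MLN8237 (2 at an unadjusted p under 0.05), and 4 rose and 2 fell with both compounds, with medians of 0.19, -0.04 and 0.07. Of all tested genes 12.6% were higher with chaetocin, and 20.1% were higher and 18.3% lower with both compounds. MKI67 rose by 0.73 ± 0.141 SE (adjusted p = 0.00135, edgeR) with both compounds and CCNB1, the main mitotic cyclin, by 0.45 ± 0.101 SE (adjusted p = 0.0037, edgeR). The S-phase genes MCM6 and RRM2 changed by -0.71 ± 0.106 SE (adjusted p = 0.000243, edgeR) and -0.32 ± 0.11 SE (adjusted p = 0.0327, edgeR). Their part in the kinesin values was not tested.

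Partners of the transport kinesins were 13 light chains, accessory subunits and cargo adaptors. Of these 1 rose and 2 fell with chaetocin, edgeR called 0 with MLN8237 (0 at an unadjusted p under 0.05), and 2 rose and 2 fell with both compounds. Their medians were 0.06, 0.02 and 0.04. Of all tested genes 24.5% were called with chaetocin and 38.5% with both compounds, and the counts of this list were not above these shares. KIFAP3, which completes the heterotrimer of KIF3A and KIF3B, fell from 16.1 ± 0.805 to 11 ± 0.946 CPM with chaetocin and to 9.95 ± 0.788 with both compounds (n = 3, edgeR adjusted p = 0.00254 and 0.000276). KIAA1279, whose product binds and blocks KIF1A and KIF1B among others, changed by -0.38 ± 0.0994 SE (adjusted p = 0.0142, edgeR) with chaetocin and -0.69 ± 0.0998 SE (adjusted p = 0.000198, edgeR) with both compounds. KLC1, a light chain of conventional kinesin, did not pass, at 61.3 ± 4.77 CPM in vehicle and 52.5 ± 2.85 with both compounds.

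Promoters of G2 and M genes often hold a cell cycle homology region (CHR), bound by the DREAM and MMB complexes, and CCAAT boxes, bound by NF-Y. The 250 bases before 1 start per gene, the entry listed first for it in RefSeq (GRCh38.p14), were searched on both strands. The letters sought were TTTGAA or TTCGAA as the CHR, and CCAAT. A match describes letters only and is not a measured binding site. No CHR match overlapped a CCAAT match in a kinesin promoter. Entries matched 34 of the 43 kinesins. CCAAT was found in 11 of 14 mitotic and 3 of 12 transport kinesin promoters, beside 33.0% of 27305 promoters. With all listed starts searched, the transport count was 4. CHR letters were found in 6 of 14 mitotic kinesins (KIF11, KIF15, KIF18A, KIF22, KIF23 and KIF4A) and in 1 of 12 transport kinesins (KIF5B), beside 14.6% of promoters. Both were found together in 5 of 14 and 1 of 12, beside 5.24%. Of the 7 mitotic kinesins that rose with both compounds, 2 held the CHR letters and 6 held CCAAT, and of the other 7 mitotic kinesins, 4 and 5 did. These other 7 include KIF2B, which had 0 counts, was not tested and held neither. They also include KIF4B, whose reads cannot be told apart from those of KIF4A.

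The last 120 bases before the start are shown for 5 mitotic kinesins that rose with both compounds, for KIF11 and KIF4A, which did not pass, and for the transport kinesin KIF1A, which fell. Each reads 5′ to 3′ on the strand of the gene, and capitals mark CHR and CCAAT letters in either direction. The windows lie on GRCh38.p14 at chr11:28108157-28108276 (minus strand) for KIF18A, chr5:138178992-138179111 (plus) for KIF20A, chr15:69414229-69414348 (plus) for KIF23, chr6:33391703-33391822 (plus) for KIFC1 and chr1:44739717-44739836 (plus) for KIF2C. The others lie at chr10:92593010-92593129 (plus) for KIF11, chrX:70289984-70290103 (plus) for KIF4A and chr2:240821404-240821523 (minus) for KIF1A.
KIF18A: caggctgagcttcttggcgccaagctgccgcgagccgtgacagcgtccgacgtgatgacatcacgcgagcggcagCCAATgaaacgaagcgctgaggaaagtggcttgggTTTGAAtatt
KIF20A: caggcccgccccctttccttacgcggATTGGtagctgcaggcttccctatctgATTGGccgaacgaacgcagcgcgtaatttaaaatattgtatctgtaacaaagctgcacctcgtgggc
KIF23: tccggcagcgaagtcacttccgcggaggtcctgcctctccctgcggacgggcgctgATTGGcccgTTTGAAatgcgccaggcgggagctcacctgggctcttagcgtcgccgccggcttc
KIFC1: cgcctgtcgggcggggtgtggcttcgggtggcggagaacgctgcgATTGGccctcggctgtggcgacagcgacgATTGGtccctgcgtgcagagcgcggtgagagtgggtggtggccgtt
KIF2C: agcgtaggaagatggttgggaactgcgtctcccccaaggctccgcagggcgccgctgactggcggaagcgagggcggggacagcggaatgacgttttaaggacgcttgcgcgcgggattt
KIF11: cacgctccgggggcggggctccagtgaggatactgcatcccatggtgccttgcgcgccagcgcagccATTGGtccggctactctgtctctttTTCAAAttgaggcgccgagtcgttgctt
KIF4A: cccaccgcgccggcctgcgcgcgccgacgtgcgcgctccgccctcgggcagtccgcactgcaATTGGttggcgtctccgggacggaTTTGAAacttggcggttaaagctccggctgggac
KIF1A: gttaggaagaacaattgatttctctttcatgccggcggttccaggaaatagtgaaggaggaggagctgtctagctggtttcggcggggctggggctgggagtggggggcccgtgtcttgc
KIF18A, KIF23, KIF11 and KIF4A hold a CCAAT box upstream of a CHR within this stretch. KIF20A and KIFC1 hold a pair of CCAAT boxes and no CHR letters, and KIF2C and KIF1A hold neither.

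**Figure D5:**
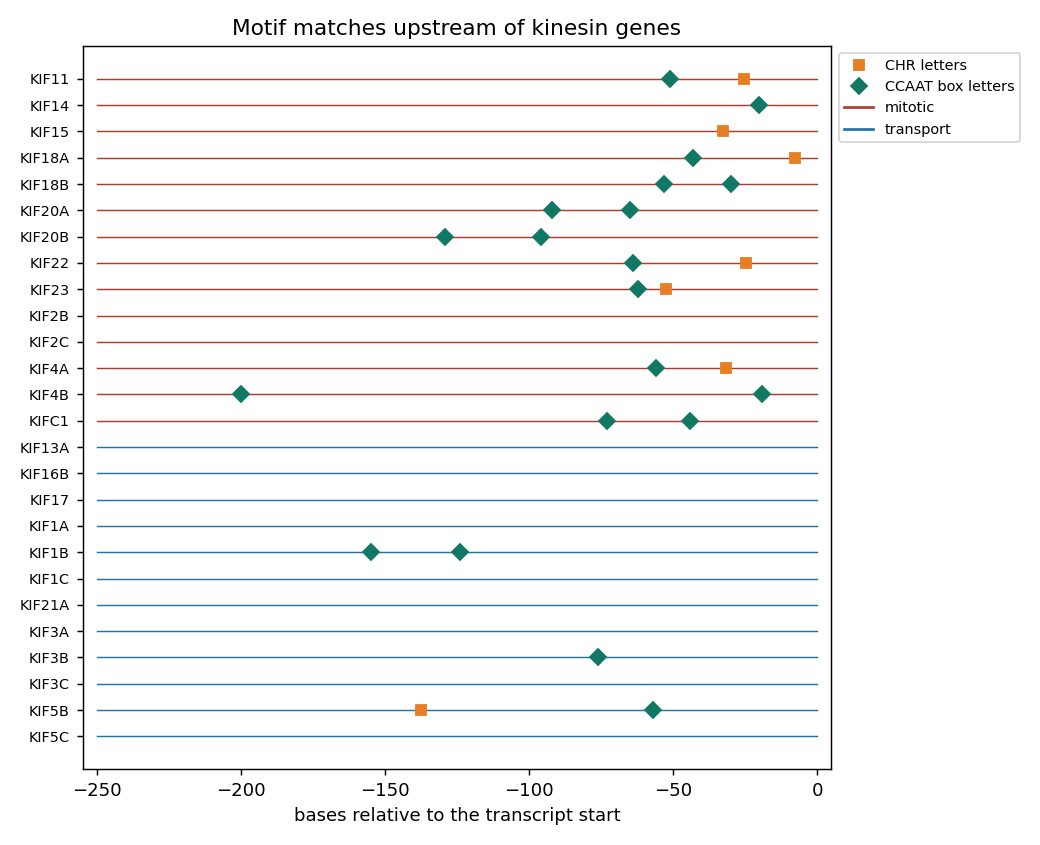
Positions of CHR letters (squares) and CCAAT letters (diamonds) in the 250 bases before the start of 14 mitotic (red) and 12 transport (blue) kinesin genes, in bases relative to the start. Most matches lie in the mitotic rows within 100 bases of the start, and 9 of the 12 transport rows have no match.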

How the data were processed

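The authors deposited raw gene counts and RPKM values for 57773 Ensembl genes in 12 libraries, per the file headers. The submitters' processing notes name HTSeq, TopHat 12.0.6, CASAVA 1.9 and the build hg19, with no roles. Gene positions were taken from that table and are on hg19 by those notes. The deposited RPKM were used only for levels between genes in vehicle. Lengths come from a deposited column headed as coding length, in which 33.7% of values are multiples of 3.

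Counts were fitted with edgeR 4.0.16 in R 4.3.3 over all 12 libraries: default expression filter, TMM scaling, robust quasi-likelihood F tests, Benjamini-Hochberg adjustment over 22831 genes with a threshold of 0.05. The fit gave a common coefficient of biological variation of 0.155. All replicate pairs differed by more than sampling noise (chi-square of 5.353 or more per gene). DESeq2 1.42.0 was an alternative, with RLE scaling, 2 other filters, the groups compared alone, a block for the replicate number, a required log2 fold change of 1 in size, left-out libraries and KIF2A counted as mitotic. The class comparison limited to transport kinesins within the mitotic length range, without matching of lengths inside it, was added after seeing the data. The floor for 0 counts covers counting error only, whereas each SE comes from the quasi-likelihood fit and takes in the spread between libraries.

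Kinesins, classes and lists were chosen with earlier results of these data known. Full values are given for the up to 6 members with the smallest p each way against vehicle and up to 3 in other contrasts, or 2 where none passed. KIF11, KIF20A, KIF23 and KIF5B were followed throughout. KIF14, KIF16B and other called members beyond that number were added after their values were seen. 1 marker list is not reported here.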

Additional observations from a re-analysis of the deposited data

How the results depend on the processing

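The number of called kinesins with chaetocin against vehicle (9) became 15 in a fit of only the groups compared, 14 without the 3 treated libraries numbered 3, 0 when a log2 fold change of 1 in size was also required, and 4 to 7 with 1 library left out. For both compounds against vehicle (15) it was 2 with the required fold change, 21 without those 3 libraries, 17 by DESeq2 and 10 to 15 with 1 library left out. Against MLN8237 (14) it was 1 with the required fold change and 13 to 15 with 1 left out. Against chaetocin (0) it was 1 by DESeq2 and 0 in the other alternatives. MLN8237 against vehicle and the interaction stayed at 0 in all alternatives run. The cause was not tested. The difference of class medians stayed positive throughout, at 0.196 to 0.326 for chaetocin, 0.0762 to 0.2 for MLN8237 and 0.35 to 0.532 for both. The 63 gene results gave 910 pairs of a result and an alternative. Of these pairs 810 kept their side of the threshold, 96 lost a call, 4 gained one and 0 calls reversed. Leaving aside the required fold change, 61 of 847 lost a call. Results that had not passed could not lose a call, so the share lost among called results is larger. Some results that did not pass changed sign, such as KIF11 with both compounds against vehicle (log2 fold change -0.0871 to 0.0591). Same-numbered libraries did not all deviate together (correlations of -0.153 to 0.462), which cannot settle whether the numbers pair the samples. The highest correlations were those of combination replicate 3 with chaetocin replicate 3 (0.462) and with MLN8237 replicate 3 (0.436). Only for the combination and MLN8237 did every library correlate best with its own number. With the replicate number as a block the counts were 12 with chaetocin, 0 with MLN8237, 18 with both, 0 against chaetocin, 18 against MLN8237 and 0 for the interaction, and KIF5B passed with chaetocin. Depth limits the members under 1 CPM, whose standard errors reached 0.473 against vehicle.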

Other observations

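Cytoplasmic dynein moves toward microtubule minus ends and is activated by dynactin. Of 22 tested genes of the 2 complexes and their regulators 3 rose and 5 fell with chaetocin, edgeR called 0 with MLN8237 (3 at an unadjusted p under 0.05), and 4 rose and 7 fell with both compounds. Of all tested genes 24.5% were called with chaetocin and 38.5% with both, and the list was not tested against them. The medians were -0.16, 0.03 and -0.12, beside 0.01, 0.00 and 0.02 over all tested genes. The dynactin genes DCTN1, DCTN2 and ACTR1B changed by -0.52 ± 0.114 SE (adjusted p = 0.00318, edgeR), -0.48 ± 0.101 SE (adjusted p = 0.00241, edgeR) and -0.67 ± 0.112 SE (adjusted p = 0.000502, edgeR) with both compounds, on the log2 scale. DYNC1I1, an intermediate chain of dynein known mainly from neurons, rose by 2.06 ± 0.352 SE (adjusted p = 0.000595, edgeR), from 0.328 ± 0.105 to 1.37 ± 0.314 CPM. DYNC1H1, the heavy chain, did not pass, at 273 ± 92.7 and 316 ± 42.1 CPM. These genes were named after their values were seen.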
